A study of Homo sapiens with 6 samples.

Results

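The AP-1 transcription factor genes examined here are FOS, FOSB, FOSL1, FOSL2, JUN, JUNB, JUND, ATF3, BATF3 and MAFF. They were chosen by gene symbol, as AP-1 subunits and related leucine-zipper genes that bind enhancers together with YAP/TAZ and TEAD, and all 10 were found among the 46427 genes of the deposited table. MDA-MB-231 is a metastatic human breast cancer cell line grown in low-glucose DMEM with serum. Cells on 6-well plates received either control-siRNA (3 libraries) or TAZ-siRNA, a siGENOME siRNA that targets WWTR1, which encodes TAZ (3 libraries), both with DharmaFECT 4, and were detached with trypsin/EDTA before RNA was harvested. The 6 libraries came from separate cell preparations of this single cell line. The comparison asks which of these genes changed when TAZ was knocked down. JUND and JUNB were higher in every TAZ-siRNA library, by 1.69-fold and 1.49-fold, and both calls held with each library left out. BATF3, at a low level, was at 76.3% of control-siRNA, but its call held in only 1 of the 6 fits without a library. FOS and FOSB had their highest values with TAZ-siRNA but were at the control level in 1 TAZ-siRNA library, and neither passed the test.

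AP-1 is a dimer of basic leucine-zipper (bZIP) proteins that binds the palindromic element TGANTCA. JUN proteins pair with each other or with FOS proteins, whereas FOS proteins need a JUN or ATF partner to bind DNA. Many of these genes are immediate-early genes, transcribed within minutes of a growth signal or stress through MAP kinases. At many enhancers in breast cancer cells AP-1 occupies DNA beside TEAD factors, which recruit YAP and TAZ.

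Total counts were 48307548 to 71749634 per library. WWTR1 mRNA fell from 191 ± 1.46 to 16.5 ± 1.21 CPM (SD, n = 3 each; CPM are counts scaled to a common library size), a log2 fold change of -3.53 (adjusted p = 2.5e-10, edgeR). Pairs of replicates differed by more than sampling noise (chi-square over its degrees of freedom, 6.79 to 41.0). In both groups the pairs with replicate 3 differed most (19.8 and 21.9 in control-siRNA, 30.3 and 41.0 in TAZ-siRNA). TAZ-siRNA replicate 3 stood farthest from its group, with a median absolute deviation of 0.087 log2 units per gene against 0.041 to 0.069 in the other libraries, so results are also given without it. Among the controls, replicate 3 had the largest deviation (0.056). Of the cell line's markers, VIM was 3574 CPM and CD44 was 524 CPM with control-siRNA, while ESR1, PGR and CDH1 had means of at most 0.290 CPM and EPCAM of at most 1.30 CPM in either group and PTPRC and ADIPOQ were at 0 counts in all libraries. ERBB2, listed with the genes low in such lines, was 46.7 CPM. The 7 markers summed to 6107 to 6411 CPM in the controls and to 5651 to 6016 CPM after TAZ knockdown, and KRT7 (log2 fold change -0.49) and EGFR (-0.21) were lower and KRT19 (0.37) higher (adjusted p at most 0.028, edgeR), the EGFR call holding in 1 of the 6 fits without a library. Among 5 genes of other cell types, the sum was 11.3 to 12.4 CPM and 14.0 to 16.6 CPM, with COL1A1 higher (log2 fold change 0.42, adjusted p = 0.0070, edgeR). The part of these shifts in the results was not tested. In bulk RNA, more mRNA per cell and more cells with the mRNA cannot be told apart.

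The promoters of the genes that changed most, or that varied most between libraries, are shown with that of MAFF. MAFF was at 79.8% of control-siRNA, but its groups overlapped and it did not pass the test (adjusted p = 0.080, edgeR). The sequences are the 250 bases before the annotated start, 5′ to 3′ on the gene's strand, from RefSeq (GRCh38.p14). Capitals mark, on either strand, the CRE palindrome TGACGTCA, its core TGACG, which overlaps it, and the TATA letters TATAA.
JUNB, chr19:12791236-12791485, plus strand: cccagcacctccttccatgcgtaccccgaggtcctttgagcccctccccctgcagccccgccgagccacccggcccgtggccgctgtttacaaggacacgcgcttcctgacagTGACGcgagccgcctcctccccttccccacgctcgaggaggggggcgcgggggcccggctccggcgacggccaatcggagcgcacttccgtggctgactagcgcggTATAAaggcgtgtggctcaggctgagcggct
JUND, chr19:18281623-18281872, minus strand: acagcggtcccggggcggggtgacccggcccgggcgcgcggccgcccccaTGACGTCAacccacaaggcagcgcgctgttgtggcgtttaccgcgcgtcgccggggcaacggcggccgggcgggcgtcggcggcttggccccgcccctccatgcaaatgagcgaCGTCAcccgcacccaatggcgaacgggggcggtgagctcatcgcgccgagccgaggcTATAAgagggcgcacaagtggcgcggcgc
FOS, chr14:75278578-75278827, plus strand: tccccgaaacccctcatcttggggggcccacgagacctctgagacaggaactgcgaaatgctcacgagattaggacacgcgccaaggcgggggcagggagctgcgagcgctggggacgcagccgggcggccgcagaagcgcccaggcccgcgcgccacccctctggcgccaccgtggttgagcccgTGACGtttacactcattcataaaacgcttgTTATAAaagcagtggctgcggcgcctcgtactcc
FOSB, chr19:45467746-45467995, plus strand: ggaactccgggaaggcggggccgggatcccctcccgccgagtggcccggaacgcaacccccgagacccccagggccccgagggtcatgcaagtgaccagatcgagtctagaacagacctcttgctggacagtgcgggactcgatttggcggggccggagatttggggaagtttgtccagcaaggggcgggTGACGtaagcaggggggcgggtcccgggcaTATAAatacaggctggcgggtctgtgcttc
MAFF, chr22:38201744-38201993, plus strand: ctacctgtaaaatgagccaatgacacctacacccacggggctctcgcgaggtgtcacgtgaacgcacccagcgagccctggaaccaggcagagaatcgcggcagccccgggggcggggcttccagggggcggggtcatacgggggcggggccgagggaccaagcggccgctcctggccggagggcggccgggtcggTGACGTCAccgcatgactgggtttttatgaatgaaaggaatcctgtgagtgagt
TATAA and the element TGACATCA were added to the search after the sequences had been seen. RefSeq entries matched 8 of the 10 genes, with 10 windows of 300 bases (250 before and 50 after the start), and the searches covered the whole window on both strands. TGACG lay in the windows of FOS, FOSB, FOSL2, JUN, JUNB, JUND and MAFF, and in 24.6% of all 35116 promoter windows. The full CRE palindrome lay in JUND (positions -200 to -193 from the start) and in MAFF (positions -54 to -47), against 1.85% of all windows. TATAA was found between positions -34 and -25 in JUNB, JUND, FOS and FOSB, and farther upstream in 1 ATF3 window. It lay at any position in 20.4% of all windows, and no share was computed for that range of positions. TGACATCA, known from the JUN promoter, was present in JUN and in 1 of the ATF3 windows (2.61% of all). Of the models that start at or near the ATF3 windows, NM_001030287 made up at most 1.49% of ATF3 TPM in any library and NM_001206486 at most 0.715%. The ATF3 matches are thus not for the start at which most of its mRNA was placed. A full AP-1 element, TGACTCA, was found only in FOSL2, 5 to 11 bases after the start, and TGANTCA was in 7.71% of all windows. The TEAD letters GGAATG (14% of all windows) and the SRF CArG box (1.29%) were in none of the 10 windows. Bases more than 250 before the start were not searched, so sites farther upstream, in FOS or any other member, would be missed.

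By edgeR's quasi-likelihood test, adjusted over 16966 genes, 3 of the 10 were called (adjusted p below 0.05), 2 higher (JUND, JUNB) and 1 lower (BATF3). That is 30% of the members, near the background of 22.1% of all genes tested (11.9% higher and 10.2% lower). Because each of the 10 genes had at least 192 counts in every library, none was left out by the expression filter. The groups did not overlap in 5 of the 10 genes, 4 with TAZ-siRNA above and 1 below, against 39.6% of all genes (20% above and 19.6% below). The median log2 fold change of the 10 was 0.21, with 8 positive and 2 negative values, and that of all genes tested was -0.0054. An exact permutation test of 3 libraries against 3 cannot go below 0.1 (2-sided), and the genes whose groups did not overlap gave that value. Calls under other settings are read against their own backgrounds: 13.1, 11.2 and 12.1% of all genes without control-siRNA replicate 1, 2 or 3, and 11.9, 15.3 and 33.7% without TAZ-siRNA replicate 1, 2 or 3. They were 23.7% with DESeq2, 22% with upper-quartile factors, 12.6% with no filter, 24.6% with at least 10 counts in every library, 30.2% with the replicate block, 16.6 and 16.7% with limma on log2(FPKM + 1) and log2(FPKM + 0.1), and 26.7% when GC content and length were corrected for.

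**Figure D1:**
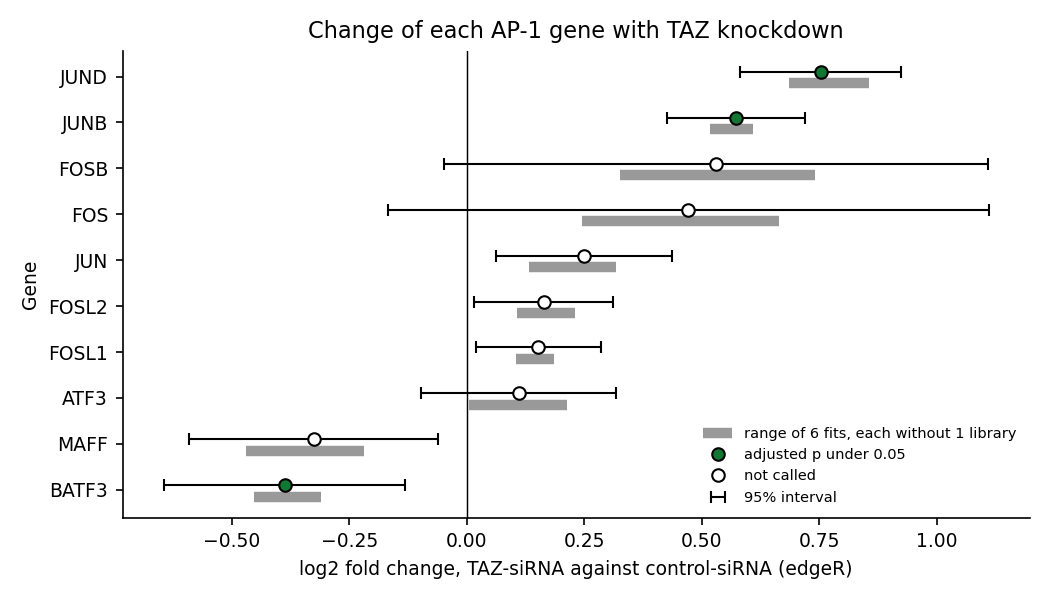
Log2 fold change of each AP-1 gene with TAZ-siRNA against control-siRNA (x axis, edgeR) with its 95% interval, and as grey bars the range over 6 fits that each left out 1 library. JUND (0.75) and JUNB (0.57) lie farthest to the right with narrow intervals, whereas the intervals of FOSB and FOS reach 1.11 and cross 0.

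JUND, a JUN protein that is constitutively present in many cell types and can restrain growth, lies on chromosome 19 (18279694 to 18281622, minus strand) as a gene of 1 exon. Its mRNA was 75.2, 60.0 and 63.9 CPM in control-siRNA replicates 1 to 3 and 108, 110 and 117 CPM in the TAZ-siRNA replicates. All TAZ-siRNA libraries were above all control-siRNA libraries, and they differed less among themselves than the controls did. The log2 fold change was 0.75 (SE 0.077, adjusted p = 2.0e-04, edgeR), and 0.69 to 0.86 with each library left out in turn. JUNB, a JUN protein induced by growth factors and cytokines, lies on the same chromosome (12791486 to 12793315, plus strand) and also has 1 exon. JUNB mRNA was 165, 147 and 166 CPM with control-siRNA and 226, 230 and 256 CPM with TAZ-siRNA. Again every TAZ-siRNA library was above all controls. The log2 fold change of JUNB was 0.57 (SE 0.067, adjusted p = 3.8e-04, edgeR) and stayed between 0.52 and 0.61. Both calls held in all 6 fits without a library, and without TAZ-siRNA replicate 3 the values were 0.72 for JUND and 0.52 for JUNB. The longest GENCODE transcripts of these genes have GC contents of 69.9% and 64.9%, and with GC content and length corrected for, the log2 fold changes were 0.74 and 0.59. JUNB overlaps HOOK2 on the opposite strand, and the sources used here do not say whether the strand was used in counting. HOOK2 was 12.4 ± 0.425 and 12.8 ± 1.07 CPM (SD, n = 3 each), far below JUNB.

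JUN, the partner of FOS in the classical AP-1 dimer, lies on chromosome 1 (58780791 to 58784047, minus strand). Its mRNA was 243, 238 and 242 CPM with control-siRNA and 267, 260 and 332 CPM with TAZ-siRNA. The groups did not overlap, but TAZ-siRNA replicate 3 was well above the other replicates. The log2 fold change was 0.25 (SE 0.085, 95% interval 0.06 to 0.44), with an adjusted p of 0.059 by edgeR that missed the threshold. Without TAZ-siRNA replicate 3 it was 0.13 with an adjusted p of 0.034 (edgeR), and without TAZ-siRNA replicate 2 it was 0.32 with an adjusted p of 0.033 (edgeR).

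FOS and FOSB are immediate-early genes whose proteins dimerise with JUN. FOS lies on chromosome 14 (75278828 to 75282230, plus strand) and FOSB on chromosome 19 (45467996 to 45475179, plus strand). FOS mRNA was 103, 107 and 133 CPM with control-siRNA and 156, 114 and 206 CPM with TAZ-siRNA. FOSB mRNA was 46.9, 43.5 and 47.9 CPM with control-siRNA and 68.8, 45.7 and 84.9 CPM with TAZ-siRNA. In both genes TAZ-siRNA replicates 1 and 3 were above every control, while TAZ-siRNA replicate 2 lay within the control range. The log2 fold changes were 0.47 for FOS (SE 0.25, adjusted p = 0.250, edgeR) and 0.53 for FOSB (SE 0.23, adjusted p = 0.169, edgeR). The 95% intervals, -0.17 to 1.11 for FOS and -0.05 to 1.11 for FOSB, include changes as large as those of JUND. Without TAZ-siRNA replicate 2 the values were 0.67 (adjusted p = 0.035, edgeR) and 0.74 (adjusted p = 0.0012, edgeR), and without TAZ-siRNA replicate 3 they were 0.25 and 0.33 (adjusted p = 0.493 and 0.352, edgeR). FOSB overlaps ERCC1 on the opposite strand, which was 83.3 ± 4.23 and 82.0 ± 4.70 CPM (SD, n = 3 each).

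FOSL1 and FOSL2 encode FRA1 and FRA2, FOS-like proteins without the strong activation domain of FOS, and FRA1 is the FOS-family protein typical of mesenchymal-like breast cancer cells. FOSL1, on chromosome 11 (65892049 to 65900526, minus strand), was 295, 272 and 281 CPM with control-siRNA and 305, 301 and 336 CPM with TAZ-siRNA. FOSL2, on chromosome 2 (28392855 to 28417317, plus strand), was 313, 303 and 299 CPM with control-siRNA and 344, 370 and 312 CPM with TAZ-siRNA. FOSL1 was higher in every TAZ-siRNA library by a small margin, and FOSL2 overlapped because of TAZ-siRNA replicate 3, the library in which FOS and FOSB were highest. The log2 fold changes were 0.15 for FOSL1 (SE 0.060, 95% interval 0.02 to 0.29, adjusted p = 0.096, edgeR) and 0.16 for FOSL2 (SE 0.067, 95% interval 0.02 to 0.31, adjusted p = 0.104, edgeR). Without TAZ-siRNA replicate 3, FOSL2 was 0.23 (adjusted p = 0.0024, edgeR) and FOSL1 0.11 (adjusted p = 0.117, edgeR). With GC content and length corrected for, FOSL1 was 0.19 (adjusted p = 0.017, edgeR) and FOSL2 was 0.06 (adjusted p = 0.364, edgeR). FOSL2-AS1 on the opposite strand and another GENCODE gene, without a symbol, on the same strand overlap FOSL2. Neither was analysed here.

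ATF3, a stress-induced bZIP factor that often represses transcription, lies on chromosome 1 (212565334 to 212620777, plus strand). It was 87.0, 86.0 and 93.8 CPM with control-siRNA and 95.7, 82.0 and 110 CPM with TAZ-siRNA, so that the groups overlapped on both sides. Its log2 fold change was 0.11 (SE 0.093, 95% interval -0.10 to 0.32, adjusted p = 0.434, edgeR), and 0.01 without TAZ-siRNA replicate 3. BATF3, a small bZIP protein without an activation domain that pairs with JUN, is known for its role in dendritic cells and lies on the same chromosome (212686417 to 212699943, minus strand). BATF3 mRNA was low, at 5.43, 5.01 and 6.12 CPM with control-siRNA and 4.17, 3.89 and 4.57 CPM with TAZ-siRNA. The groups did not overlap, with TAZ-siRNA below, and the raw counts were 192 to 362. The log2 fold change was -0.39 (SE 0.12, adjusted p = 0.037, edgeR), yet this call held in only 1 of the 6 fits without a library, that without TAZ-siRNA replicate 3 (-0.44, adjusted p = 0.013, edgeR). In the other 5 the adjusted p was 0.057 to 0.152 (edgeR), and it was 0.058 (edgeR, log2 fold change -0.29) once GC content and length were corrected for.

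MAFF, a small MAF protein that lacks an activation domain and can pair with FOS, lies on chromosome 22 (38201932 to 38216511, plus strand). MAFF mRNA was 177, 161 and 182 CPM with control-siRNA and 132, 118 and 165 CPM with TAZ-siRNA. TAZ-siRNA replicate 3 lay inside the control range, and the other TAZ-siRNA libraries were below it. The log2 fold change was -0.33 (SE 0.12, 95% interval -0.59 to -0.06) with an adjusted p of 0.080 by edgeR. Without TAZ-siRNA replicate 3 it was -0.47 (adjusted p = 9.0e-05, edgeR), and by DESeq2 on all libraries it was -0.32 (adjusted p = 0.0092). PLA2G6 on the opposite strand was 6.40 ± 0.438 and 6.17 ± 0.355 CPM (SD, n = 3 each).

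The number of members called therefore depended on which libraries were included, and most on TAZ-siRNA replicates 2 and 3. Without TAZ-siRNA replicate 3, 6 members were called, 4 higher (JUND, JUNB, FOSL2, JUN) and 2 lower (MAFF, BATF3), against 33.7% of all genes (17.6% higher and 16.1% lower). Without TAZ-siRNA replicate 2, 5 were called, all higher (JUND, JUNB, FOSB, FOS, JUN), against 15.3% of all genes (8.62% higher and 6.72% lower). Without any 1 of the other 4 libraries, JUND and JUNB alone were called, against 11.2 to 13.1% of all genes. Relative to the mean of their group, FOS, FOSB, FOSL1, JUN, ATF3, BATF3 and MAFF were all lowest in TAZ-siRNA replicate 2 and highest in replicate 3, whereas FOSL2 had the opposite order. Among the controls, FOSB, ATF3, BATF3 and MAFF were also lowest in replicate 2 and highest in replicate 3. FOSL1 and JUN were lowest in control-siRNA replicate 2 but highest in replicate 1. FOS was lowest in control-siRNA replicate 1 and highest in replicate 3, and FOSL2 had the opposite order. The coefficient of variation within TAZ-siRNA was 29.2% for FOS, 29.6% for FOSB, 17.7% for MAFF, 14.7% for ATF3 and 14.0% for JUN, and within control-siRNA it was 14.2, 5.02, 6.29, 4.82 and 1.12%. JUND had the reverse, with 4.19% within TAZ-siRNA and 11.9% within control-siRNA. TAZ-siRNA replicate 2 had the fewest counts (48307548), and the part of depth was not tested.

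**Figure D2:**
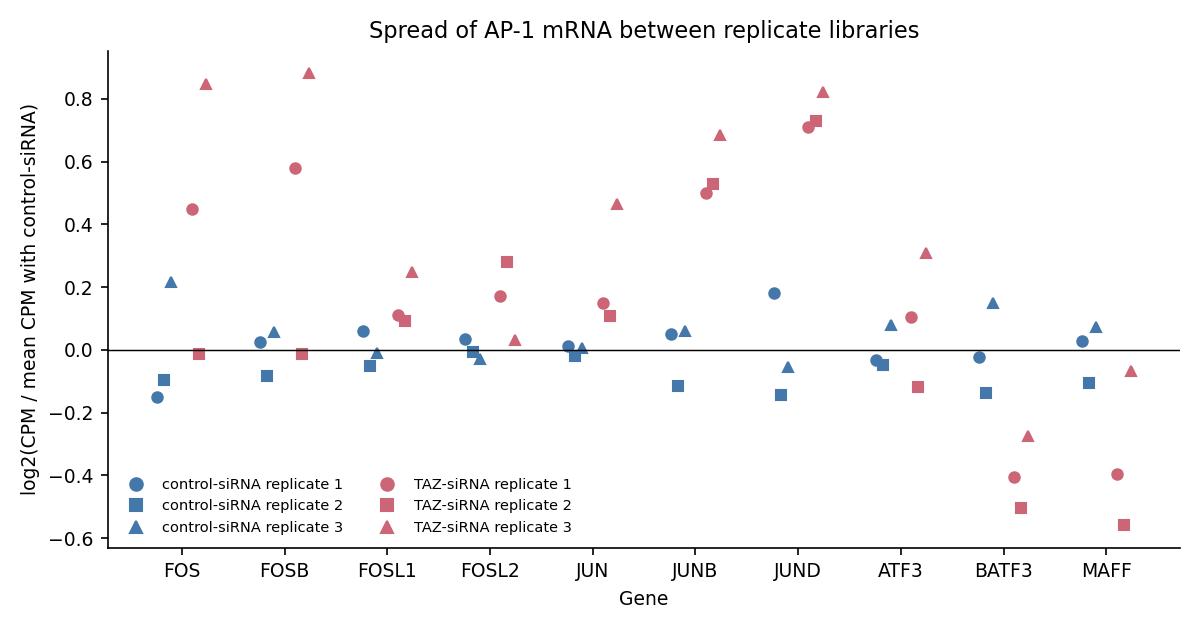
Log2 ratio of each library's CPM to the control-siRNA mean (y axis) for the 10 AP-1 genes, with colour for the group and marker shape for the replicate. In JUNB and JUND the 3 TAZ-siRNA points lie together above all controls, whereas in FOS and FOSB the square of TAZ-siRNA replicate 2 lies among the controls and the triangle of replicate 3 lies above 0.8.

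Levels of different genes were compared in TPM, which are scaled for transcript length. With control-siRNA, FOSL1 was the most abundant at 366 ± 18.3 TPM (SD, n = 3) and BATF3 the least at 14.0 ± 1.10. JUNB (189 ± 11.1 TPM) came next and was followed by JUN (161 ± 3.55), MAFF (158 ± 7.88), FOS (118 ± 13.8), FOSL2 (99.5 ± 4.71), ATF3 (89.8 ± 2.29), JUND (74.7 ± 9.64) and FOSB (26.8 ± 1.06) before BATF3. The only neighbours whose libraries overlapped were JUN and MAFF. With TAZ-siRNA, FOSL1 (423 ± 7.43 TPM), JUNB (292 ± 6.96) and JUN (198 ± 18.4) kept their places, and JUND moved from the eighth to the fifth place at 131 ± 0.689 TPM. The libraries of JUN, FOS, JUND, MAFF, FOSL2 and ATF3 overlapped from neighbour to neighbour there, so the order of neighbours is not resolved. JUND (130 to 132 TPM) was above every TAZ-siRNA library of FOSL2 (100 to 128 TPM) and ATF3 (90.7 to 112 TPM). With control-siRNA it was below every library of both. JUND in TPM was 85.8, 68.4 and 70.0 with control-siRNA and 131, 132 and 130 with TAZ-siRNA.

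**Figure D3:**
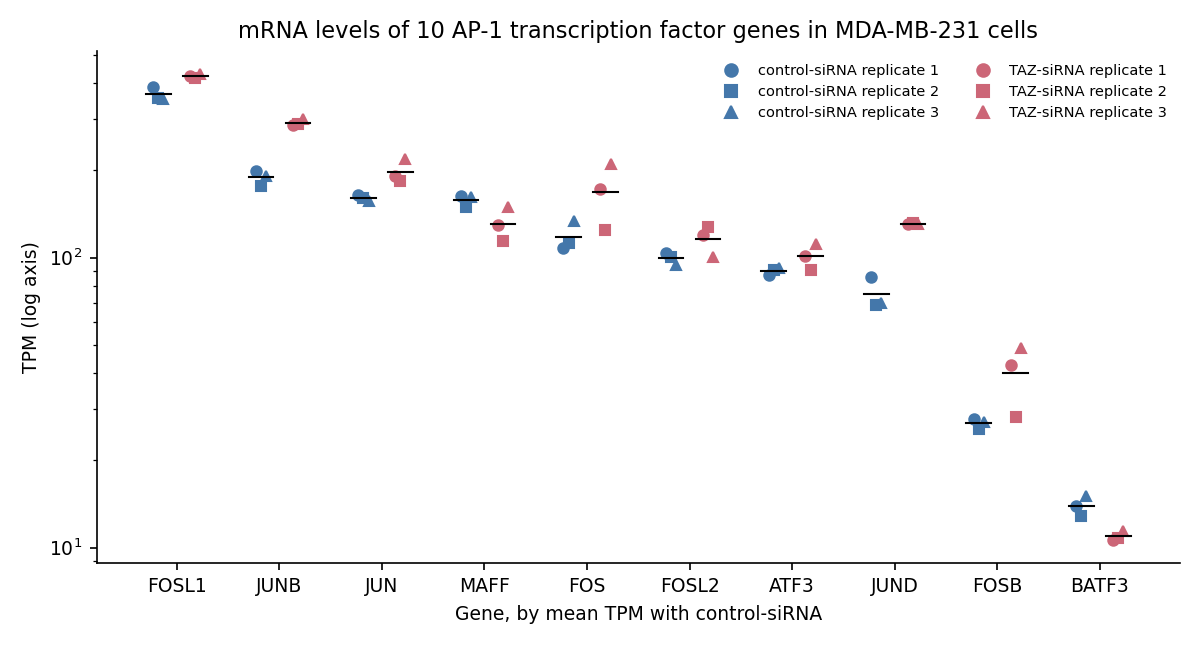
TPM of the 10 AP-1 genes in each library (log y axis), ordered by the control-siRNA mean, with a black line at each group mean. FOSL1 is highest in both groups, and the gap between the groups is widest for JUND, whose TAZ-siRNA libraries lie at 130 to 132 TPM.

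The summed mRNA of the JUN family (JUN, JUNB, JUND) was 449, 406 and 419 TPM with control-siRNA and 608, 605 and 649 TPM with TAZ-siRNA, 1.46 times as high. The summed mRNA of the FOS family (FOS, FOSB, FOSL1, FOSL2) was 626, 595 and 609 TPM against 759, 695 and 789 TPM, 1.23 times as high. The groups did not overlap in either sum (exact permutation p = 0.1, 2-sided, 0.138 adjusted over 11 sums and shares, the smallest that the libraries allow being 0.1 before adjustment). On the CPM scale the ratios were 1.36 for the JUN family and 1.18 for the FOS family. The median gene with at least 1 CPM was 0.053 log2 units higher with TAZ-siRNA on the TPM scale and -0.0036 on the CPM scale, and the part of this shift in the ratios was not tested. JUN-family mRNA made up 41.0 ± 0.630% of the 7 genes' TPM with control-siRNA and 45.4 ± 1.04% with TAZ-siRNA (SD, n = 3 each). JUNB went from 18.3 to 21.4% and JUND from 7.21 to 9.58%, while FOSL1 went from 35.3 to 30.9% and JUN from 15.5 to 14.4%, each without overlap between the groups. A smaller share of FOSL1 thus stood beside a level that was not lower. These shares are of mRNA, and the proteins were not measured in these files.

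**Figure D4:**
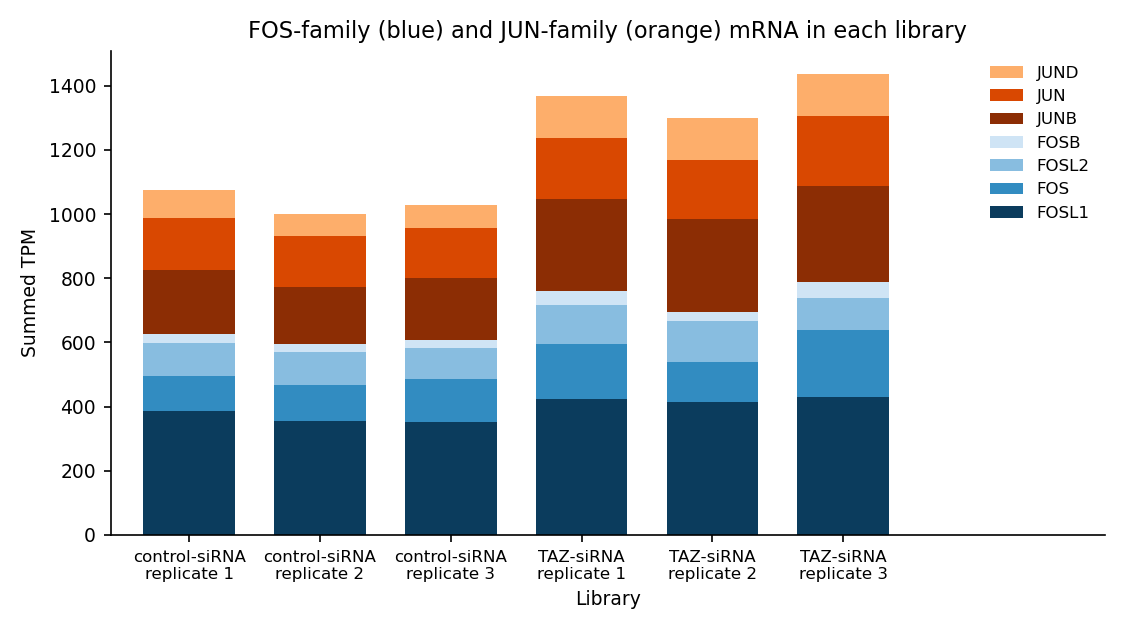
Summed TPM of the FOS-family (blue) and JUN-family (orange) genes in each of the 6 libraries, with bars from 0 and each segment 1 gene. The TAZ-siRNA bars are taller (1300 to 1437 against 1001 to 1075 TPM), with the clearest gain in the JUNB and JUND segments.

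Single transcripts are given as values only, since StringTie divides reads among overlapping models. FOS, JUN and JUNB have 1 transcript each in the table. FOSB has 3 models, of which NM_006732 (3775 bases) is the longest. It made up 65.7 to 78.7% of FOSB TPM per library, NM_001114171 (3667 bases) at most 1.12%, and the predicted model XM_005258691 (3635 bases) 21.3 to 33.2%. NM_006732 was 18.8, 17.3 and 17.8 TPM in the controls and 33.3, 22.1 and 34.0 TPM after TAZ knockdown, so that its groups did not overlap. FOSL1 was mainly NM_005438 (57.9 to 61.6% of its TPM) and NM_001300855 (19.5 to 26.0%). The share of NM_001300855 averaged 24.0% with control-siRNA and 19.8% with TAZ-siRNA. JUND is listed as 2 models with the same coordinates, and 40.3% of its TPM in control-siRNA replicate 3 was placed on NM_001286968 against nearly 0 elsewhere, so only the sum is meaningful. ATF3 was spread over 9 models, and the share of NM_001674 ran from 14.2 to 59.2% between libraries. MAFF was 96.0 to 99.0% NM_012323 in each library.

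The wider network was described by lists of genes, each as counts beside the 22.1% of all genes called. Of 43 other bZIP genes, which include the dimer partners of JUN and FOS, 39 were tested and 10 were called (25.6%), 6 higher and 4 lower, and the median log2 fold change was 0.07. BACH2, a repressor that pairs with small MAF proteins, went from 6.97 ± 0.201 to 11.1 ± 1.86 CPM (SD, n = 3 each; log2 fold change 0.67, adjusted p = 0.0031, edgeR). CREB3L1 (0.56) and CEBPB (0.49) were also higher, and JDP2 (-0.38), a JUN-dimerising repressor, and ATF5 (-0.34) were lower (adjusted p at most 0.011, edgeR). Without control-siRNA replicate 2 the count of these genes was 5.

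Of 45 genes upstream of AP-1 (RAS, RAF and MAP kinases, their nuclear substrates and JUN-degrading factors), 44 were tested and 10 were called (22.7%), 8 higher and 2 lower, and the median log2 fold change was 0.06. MAP3K5, the stress kinase ASK1, went from 13.5 ± 1.37 to 22.8 ± 3.32 CPM (SD, n = 3 each; log2 fold change 0.75, adjusted p = 0.0014, edgeR). MAP2K4, which phosphorylates the JUN kinases, had a log2 fold change of 0.39, GSK3B of 0.36 and RPS6KA1 of 0.34 (adjusted p at most 0.0078, edgeR). MAPK11, a p38 kinase at 3.04 ± 0.410 and 2.07 ± 0.192 CPM (SD, n = 3 each), had -0.56 (adjusted p = 0.026, edgeR), a call that held in 2 of the 6 fits without a library. The kinases ERK1 (MAPK3, 0.05) and JNK1 (MAPK8, 0.01) were not called. The share was close to that of all genes, and the count was 21 without TAZ-siRNA replicate 3, 5 without control-siRNA replicate 2 or TAZ-siRNA replicate 1, and 6 without control-siRNA replicate 3 or TAZ-siRNA replicate 2.

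Of 36 genes known as AP-1 targets, 35 were tested and 14 were called (40%), 10 higher and 4 lower, and the median log2 fold change was -0.06 and 21 of 35 values negative. MMP13, a collagenase, was at 0.860 ± 0.155 and 1.89 ± 0.481 CPM (SD, n = 3 each; log2 fold change 1.13, adjusted p = 0.0065, edgeR). ITGA2, the collagen receptor subunit, had a log2 fold change of 0.50, TGFA, an EGFR ligand, of 0.44 and PLAUR, the urokinase receptor, of 0.42 (adjusted p at most 7.8e-04, edgeR). IL6 had -0.46 (adjusted p = 0.043, edgeR), which held in 1 of the 6 fits without a library. Without TAZ-siRNA replicate 1 the count was 7 (7 higher and 0 lower), without control-siRNA replicate 1 or 2 it was 8 (7 higher and 1 lower), and without TAZ-siRNA replicate 3 it was 21 (11 higher and 10 lower), so the balance of directions depended on the libraries included.

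Of 22 genes of a YAP/TAZ-TEAD target list, which shares 0 genes with the AP-1 targets, all were tested and 11 were called (50%), 0 higher and 11 lower, with a median of -0.29. ANKRD1 (-2.93), CCN1 (-1.42), TGFB2 (-1.35), CCN2 (-1.02) and F3 (-0.99) had the largest falls (adjusted p at most 4.9e-04, edgeR). The changes of JUND and JUNB were opposite in sign to these and smaller on the log2 scale. Among 10 genes of TAZ and its nuclear partners, 8 were tested and 5 called: beside WWTR1, TEAD1 (-0.27), TEAD4 (-0.31) and VGLL3 (-0.58) were lower and VGLL4 (0.40), a TEAD-binding repressor, was higher. The calls of TEAD1 and VGLL3 held in 3 and 1 of the 6 fits without a library.

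**Figure D5:**
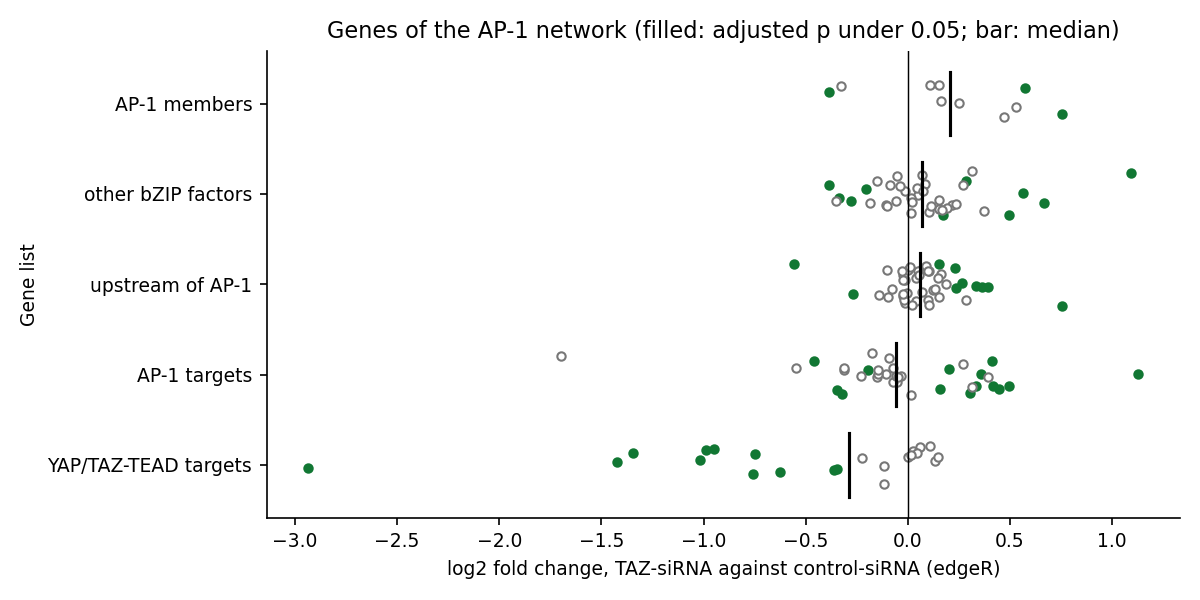
Log2 fold change (x axis, edgeR) of every tested gene in 5 lists, 1 point per gene, filled where the adjusted p was under 0.05, with a bar at the list median. The AP-1 members lie between -0.39 and 0.75 around a median of 0.21, and the called YAP/TAZ-TEAD targets all lie left of 0.

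JUND had the largest change of the 10, and among 13590 other genes with at least 1 CPM those whose log2 CPM followed it most closely over the 6 libraries were FOXQ1 (Pearson r = 0.999), ABCG2 (0.997), CDK8 (0.995), ANOS1 (0.994) and TGFB1 (0.993). With so many genes and only 6 libraries, these values describe a shared pattern over libraries. FOXQ1, a forkhead factor, went from 8.67 to 15.2 CPM (log2 fold change 0.81, adjusted p = 3.4e-04, edgeR), and the other 4 had log2 fold changes of 0.16 to 0.29.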

How the data were processed

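RNA from 3 control-siRNA and 3 TAZ-siRNA preparations of MDA-MB-231 cells was sequenced as strand-specific paired-end libraries. Reads were trimmed by the authors, aligned to GRCh38 by HISAT2 and assigned to RefSeq genes by StringTie (versions not given in the sources used here). The submitters' processing notes also name Bowtie 0.12.2 and mm8, with no role. The deposited estimated counts are whole numbers derived from coverage, and the deposited FPKM and TPM values are scaled for length and library size. Replicates are numbered 1 to 3 as in the value columns, and 0 value columns were left without a sample. The test of TAZ-siRNA against control-siRNA was the quasi-likelihood F test (robust) of edgeR 4.0.16 in R 4.3.3, after filterByExpr (minimum count 10) and TMM, with Benjamini-Hochberg adjustment. Called means an adjusted p under 0.05. Alternatives used a replicate block, DESeq2 1.42.0, other filters and scalings, limma 3.58.1 with log2 FPKM after adding 1 or 0.1, each library left out, and, added after the data were seen, GC content and length splines (5 degrees of freedom; values for 89.7% of genes). The methods were tested on simulated data. Members and lists were chosen with earlier results of these data known. Named genes were all members, WWTR1, up to 5 called genes per list with at least 1 CPM and the largest change, and the 5 genes most like the member that changed most. MAPK3, MAPK8, HOOK2, ERCC1, PLA2G6 and the markers not called were named after their values were seen.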

Additional observations from a re-analysis of the deposited data

How the results depend on the processing

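The log2 fold change of every member kept its sign in all 14 alternatives, and the calls of JUND and JUNB held in each. The count of 3 members called became 5 with DESeq2 (JUN higher and MAFF lower were added) and 2 to 6 with each library left out. With the GC content and length correction it stayed 3, but as 3 higher and 0 lower, FOSL1 being called and BATF3 not. Over all genes tested, same-numbered libraries deviated together with correlations of 0.039, 0.034 and 0.21, and differently numbered ones with -0.16 to 0.13. FOSB, ATF3, BATF3 and MAFF had the same order of replicates in both groups. The SE of each member was smaller with the replicate block, for FOS 0.14 against 0.25. Whether the replicate numbers pair the libraries was not settled by these values. With the replicate block, 7 members were called (5 higher, 2 lower) and 5122 of all genes against 3749 without it, and only control-siRNA replicate 3 and TAZ-siRNA replicate 3 correlated best with their own number. Genes upstream of AP-1 called, 10 in the main comparison, became 5 and 6 with limma on log2(FPKM + 1) and log2(FPKM + 0.1). With each library left out, the counts ran from 5 to 21 for genes upstream of AP-1, from 5 to 14 for other bZIP factors, from 7 to 21 for AP-1 targets, from 10 to 12 for YAP/TAZ-TEAD targets and from 1937 to 5928 for all genes. The ratios of summed TPM stayed between 1.19 and 1.27 for the FOS family and between 1.43 and 1.51 for the JUN family. The cause of these shifts was not tested. The lowest count of a member in any library was 192, and the part of depth was not tested.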
